A study of Rattus norvegicus with 8 samples.

Results

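The genes described here encode mitochondrial enzymes that feed the respiratory chain: 17 of the pyruvate dehydrogenase complex and the tricarboxylic acid (TCA) cycle, and 17 of fatty acid beta oxidation. They were taken by symbol from a list of these pathways, without use of any measured value, and all 34 were found among the 17055 rows of the count table, Idh3b under the spelling Idh3B. All 34 also passed the filter on low counts. Diaphragm RNA was sequenced from 8 Sprague-Dawley rats, 16 weeks after chest surgery. In the 4 MI animals (replicates 1 to 4) a myocardial infarction was made by tying the left anterior descending coronary artery, and the 4 Sham animals (replicates 5 to 8) were operated on in the same way without the tie. Both groups thus shared the opening of the chest, the ventilation and the anaesthesia, and each animal gave 1 library. Infarct size and heart function are not given in the labels used here.

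Pyruvate from glucose enters the mitochondrion and is turned into acetyl-CoA by pyruvate dehydrogenase, while long-chain fatty acids enter as carnitine esters and are shortened to acetyl-CoA by beta oxidation. The TCA cycle then oxidises acetyl-CoA and passes electrons to the respiratory chain. The diaphragm contracts without rest and is rich in mitochondria, and fatty acids are a main fuel of such muscle. The comparison of MI with Sham asks whether transcripts of these enzymes differ in the breathing muscle long after an infarction.

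The windows before the starts of 4 genes are printed to show the sequence context of genes described below. They were picked with the values known, and no result here tests a start region. Hadha and Hadhb encode the alpha and beta subunits of 1 enzyme, the mitochondrial trifunctional protein, and are read in opposite directions from starts separated by 300 bases on chromosome 6. The 250 bases before the start of each gene therefore share 200 bases, which stand in capitals in the window of Hadha. Fh, Idh3b and Mdh2 are the members whose MI and Sham animals did not overlap. In their windows capitals mark matches to CCGGAAG, the core bound by ETS factors such as GABP, or to GGGCGG, the core bound by Sp and KLF factors, on either strand. All windows are written 5′ to 3′ on the strand of the gene, from RefSeq promoters of the GRCr8 assembly: Hadha at chr6:31907551-31907800 (plus strand), Idh3b at chr3:137939991-137940240 (minus), Fh at chr13:90082451-90082700 (minus) and Mdh2 at chr12:26543842-26544091 (minus). The counts themselves were made on another build, rn5.
Hadha: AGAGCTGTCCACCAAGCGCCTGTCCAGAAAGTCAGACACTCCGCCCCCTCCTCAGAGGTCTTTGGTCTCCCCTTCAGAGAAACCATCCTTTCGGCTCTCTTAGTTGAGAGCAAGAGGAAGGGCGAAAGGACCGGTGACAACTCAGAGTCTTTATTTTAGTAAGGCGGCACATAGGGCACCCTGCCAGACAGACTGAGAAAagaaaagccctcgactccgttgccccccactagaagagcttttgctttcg
Idh3b: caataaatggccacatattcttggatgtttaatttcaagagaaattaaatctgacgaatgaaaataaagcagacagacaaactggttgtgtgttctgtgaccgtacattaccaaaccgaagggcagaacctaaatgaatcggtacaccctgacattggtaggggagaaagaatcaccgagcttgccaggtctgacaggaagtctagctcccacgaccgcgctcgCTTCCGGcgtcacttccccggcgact
Fh: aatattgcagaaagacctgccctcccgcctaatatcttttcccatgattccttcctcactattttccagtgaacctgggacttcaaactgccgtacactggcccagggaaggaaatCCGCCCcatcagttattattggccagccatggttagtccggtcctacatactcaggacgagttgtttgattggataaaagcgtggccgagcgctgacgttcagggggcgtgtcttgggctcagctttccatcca
Mdh2: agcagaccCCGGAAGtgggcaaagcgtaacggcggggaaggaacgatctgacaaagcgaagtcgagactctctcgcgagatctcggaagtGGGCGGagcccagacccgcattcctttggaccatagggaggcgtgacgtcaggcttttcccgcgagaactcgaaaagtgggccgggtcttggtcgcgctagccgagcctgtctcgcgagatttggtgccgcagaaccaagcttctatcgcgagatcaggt

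Of the 34 members 28 had a promoter entry of 300 bases, 250 before and 50 after the start. Idh3a, Cpt1b, Acadl, Acaa2, Ech1 and Decr1 are named only. CCGGAAG or its reverse complement was in 6 of the 28 windows (21.4%), those of Idh3b, Idh3g, Dlst, Mdh2, Cpt2 and Slc25a20, against 17.6% of 7835 windows of tested genes and 8.74% of all 33465 windows. GGGCGG was in 75% of the members' windows, against 62.8% of tested genes and 33.1% of all windows. TNAAGGTCA, the extended site of the oestrogen-related receptors, was in 0 of the 28 windows, in 0.562% of tested genes and in 1.2% of all. GCGCATGCG, of nuclear respiratory factor 1, was in 0 of 28, in 3.37% of tested genes and in 1.52% of all. AGGTCA, the hexamer of nuclear receptors that lies within the oestrogen-related receptor site, was in 6 of 28 (21.4%), in 11.9% of tested genes and in 16.2% of all. The E-box CACGTG was in 7.14% of the members' windows, 9.19% of tested genes and 6.42% of all. These are letter matches on either strand of a short window, not sites of binding.

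No member passed the test between MI and Sham. With edgeR's quasi-likelihood test and adjustment over all 10522 genes tested, 0 members reached an adjusted p under 0.05 with MI above Sham and 0 with MI below, as did 0.0% of all genes in each direction. At an unadjusted p under 0.05, 2 of the 34 members were higher in MI (3.67% of all genes) and 0 lower (4.47%). DESeq2 on the same counts called 0 members (0.133% of all genes), with a smallest adjusted p of 0.267 among them, and limma-voom called 0. The groups did not overlap for 3 members with MI above Sham, where 2.09% of all genes did so, and for 0 with MI below Sham (2.46%). All 3 belonged to the TCA cycle. In whole tissue, fewer cells of a type and less RNA per cell cannot be told apart, which holds for every value given here.

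Levels are given below as CPM, the counts of a gene scaled to a common library size, and differences as log2 fold changes of MI over Sham. The 95% interval of the MI to Sham difference lay within 1.5-fold in both directions for 33 of 34 members, against 63.6% of all genes tested. The exception to the 1.5-fold bound was Acads. Each member was at about 82.0 CPM or more in every animal, while all genes tested include genes with far fewer counts. Of 15 general mitochondrial genes described below, 93.3% had an interval within that bound. The median standard error of a log2 fold change was 0.078 for the pyruvate dehydrogenase and TCA members and 0.10 for the beta oxidation members, against 0.145 for all genes tested.

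**Figure D1:**
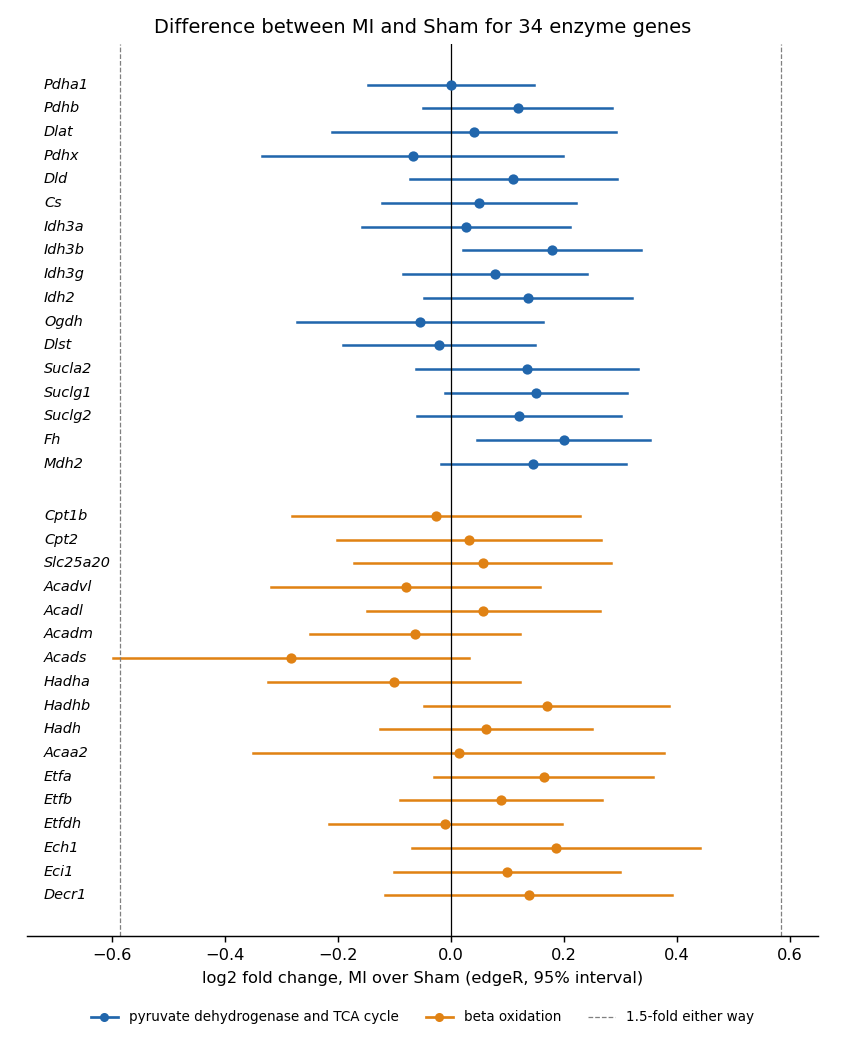
Log2 fold change of MI over Sham (x axis, edgeR) for each of the 34 enzyme genes, with its 95% interval as a line. Blue marks pyruvate dehydrogenase and TCA cycle genes, orange beta oxidation genes, and dashed lines a 1.5-fold difference; the interval of Acads alone crosses a dashed line.

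Among pyruvate dehydrogenase and TCA cycle genes, 14 of 17 had a log2 fold change above 0, where 48.7% of all genes tested did, and their median was 0.11, beside -0.0070 over all genes. The values ran from -0.07 for Pdhx to 0.20 for Fh. The median was 0.066 without MI replicate 4, the lowest over the libraries left out, and 0.14 without MI replicate 1. The 2 members at an unadjusted edgeR p under 0.05 became 1 without MI replicate 4 or Sham replicate 6 and 0 without Sham replicate 7. Over all genes tested the count at that p fell as well. It went from 856 to 596, 702 and 514 without MI replicate 4, Sham replicate 6 and Sham replicate 7. The summed level of the 17 genes was 20913 ± 633 CPM in MI and 19361 ± 585 in Sham (SD, n = 4 each). MI replicate 1, at 19998 CPM, lay below Sham replicate 5, at 20035. The groups therefore overlapped in this sum by a near tie. In the mean of log2 CPM, given below, the overlap was wider, with MI replicate 1 (9.63) below Sham replicates 5 (9.68) and 6 (9.66).

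Fh, encoding fumarase, which turns fumarate into malate, had the smallest p of the members. It was at 838, 849.6, 825 and 875 CPM in MI replicates 1 to 4 and at 721, 769.8, 699 and 759.7 CPM in Sham replicates 5 to 8. Every MI animal lay above every Sham animal, with a gap between the groups larger than the range within MI but smaller than the range within Sham. Its log2 fold change was 0.20 ± 0.07 (SE) with an unadjusted p of 0.0154 and an edgeR adjusted p of 0.601, which does not pass. Leaving out single animals moved it between 0.17 and 0.23.

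Mdh2, the malate dehydrogenase that follows fumarase in the cycle, was at 2418, 2467, 2574 and 2488 CPM in MI and at 2354, 2236, 2096 and 2300.3 CPM in Sham. The groups again did not overlap, but MI replicate 1 and Sham replicate 5 were close. The log2 fold change was 0.15 ± 0.07 (edgeR adjusted p = 0.637).

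The 3 subunits of the NAD-dependent isocitrate dehydrogenase, the step that makes oxoglutarate, differed in how they lay. Idh3b, a regulatory beta subunit, was at 1233, 1185, 1219 and 1300.2 CPM in MI and at 1150.3, 1072, 1057 and 1079 CPM in Sham, without overlap. Its log2 fold change was 0.18 ± 0.07 (edgeR adjusted p = 0.601). Idh3a, the catalytic subunit, was at 1671 ± 93.6 CPM in MI and 1641 ± 122 in Sham (SD, n = 4 each). That is 0.03 ± 0.08 on the log2 scale, and Idh3g, the other regulatory subunit, had 0.08 ± 0.07. Idh3b overlaps the gene Nop56 in the RefSeq list, and as the labels do not say that strand was kept, their reads in the overlap cannot be told apart. Nop56 itself was at 84.2 CPM in MI and 84.0 in Sham. Idh2, the NADP-dependent isocitrate dehydrogenase of the matrix, was at 4628 ± 191 against 4209 ± 309 CPM, with an interval of -0.05 to 0.32 around a log2 fold change of 0.14.

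Succinyl-CoA ligase, the step of the cycle that makes a nucleoside triphosphate directly, has an alpha subunit from Suclg1 and a beta subunit from Sucla2 or Suclg2, which use adenine and guanine nucleotides respectively. Suclg1 was at 1337, 1241, 1331 and 1365 CPM in MI and at 1258, 1189.5, 1138 and 1162 CPM in Sham. MI replicate 2 lay just below Sham replicate 5, and the other MI animals were above all Sham animals. All 3 genes had similar log2 fold changes, 0.15 for Suclg1, 0.13 for Sucla2 and 0.12 for Suclg2, at edgeR adjusted p of 0.623, 0.687 and 0.691.

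Citrate synthase, Cs, which opens the cycle and whose activity is a common measure of mitochondrial content, was at 363, 414, 446 and 408 CPM in MI and at 404, 401, 376 and 394 CPM in Sham. The groups overlapped widely, with both the highest and the lowest animal in MI, and the log2 fold change was 0.05 ± 0.08. It was 0.0087 without MI replicate 3, 0.022 without Sham replicate 7 and 0.097 without MI replicate 1. Ogdh and Dlst, the E1 and E2 subunits of the oxoglutarate dehydrogenase complex, had log2 fold changes of -0.05 and -0.02, and both signs turned without MI replicate 1. In that animal Ogdh was at 409.6 CPM and at least 464 CPM in each of the other 7.

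The pyruvate dehydrogenase complex is built from the products of Pdha1, Pdhb, Dlat, Pdhx and Dld, none of which passed the test. Pdha1, the E1 alpha subunit that is switched off by phosphorylation, was nearly level over the 8 animals, from 859 to 916 CPM, with a log2 fold change of 0.00 ± 0.07 and an interval of -0.15 to 0.15. Pdhb, the E1 beta subunit, was at 1322 ± 61.3 CPM in MI and 1218 ± 65.8 in Sham (SD, n = 4 each; log2 fold change 0.12 ± 0.08). Dlat, the E2 core, was at 158 CPM in MI replicate 1 and between 197 and 233 CPM in the other 7 animals. Pdhx, the protein that anchors E3 to the core, was at 159 CPM in Sham replicate 8 and between 195 and 236 CPM elsewhere. Its log2 fold change of -0.07 became -0.19 without that Sham animal. Dld, the E3 subunit shared with the oxoglutarate complex, had 0.11 ± 0.08.

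**Figure D2:**
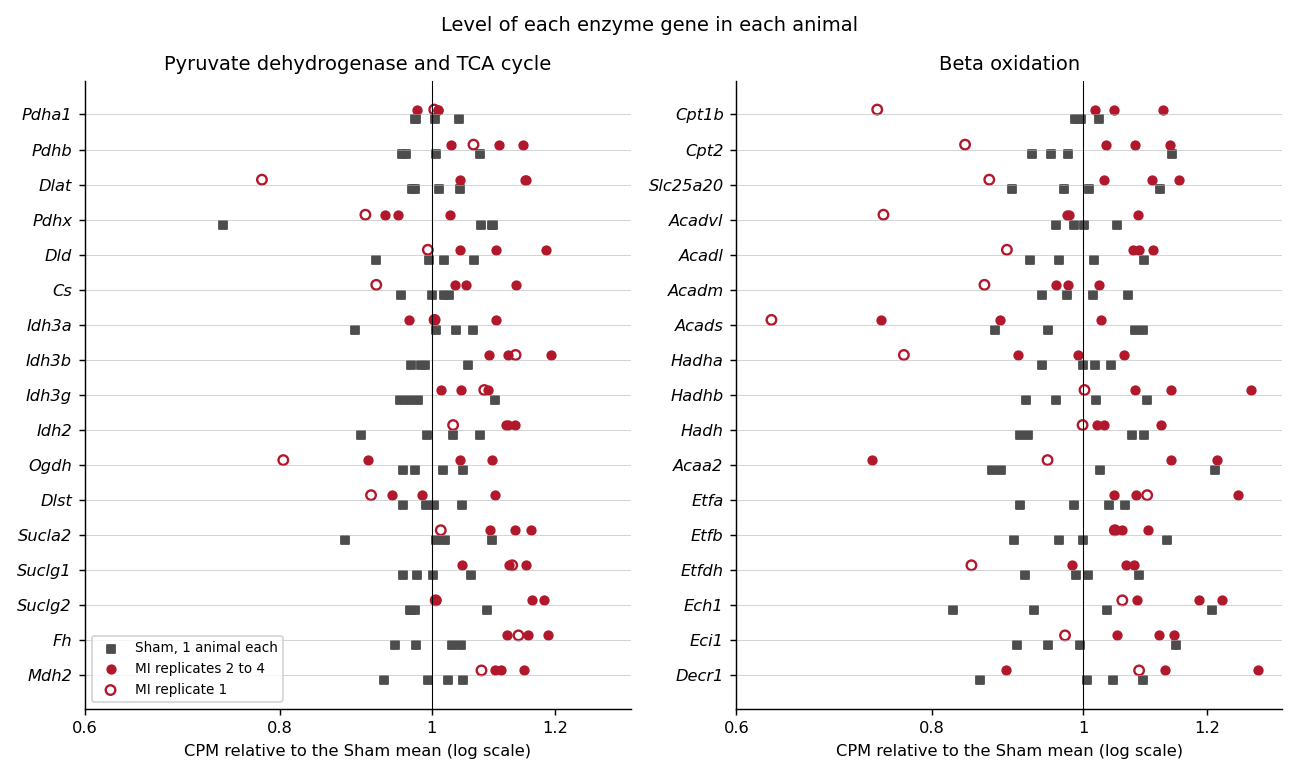
Level of each gene in each animal as CPM divided by the mean of the 4 Sham animals (log scale); squares are Sham, filled circles MI replicates 2 to 4 and open circles MI replicate 1. Fh, Mdh2 and Idh3b separate the groups, and the open circle is the lowest of the 8 animals for 9 of the 17 beta oxidation genes.

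Among beta oxidation genes, 11 of 17 had a log2 fold change above 0 (48.7% of all genes tested), with a median of 0.056 and a range from -0.28 for Acads to 0.19 for Ech1. The median moved between 0.0054 without MI replicate 4 and 0.0995 without Sham replicate 5, and was 0.023, 0.028 and 0.012 without MI replicate 2, Sham replicate 6 and Sham replicate 7. Neither direction had a member at an unadjusted edgeR p under 0.05 (3.67% of all genes higher, 4.47% lower). Nor had either a member without overlap between the groups (2.09% of all genes with MI above Sham, 2.46% below). The summed level was 20343 ± 1534 CPM in MI and 19637 ± 1262 in Sham (SD, n = 4 each), so that the difference was smaller than the spread within either group.

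The carnitine shuttle carries long-chain fatty acids into the matrix. Cpt1b, the muscle form of the gatekeeping carnitine palmitoyltransferase, was at 324, 493, 459 and 446 CPM in MI and at 437, 433, 435 and 448 CPM in Sham. The Sham animals were almost equal, while MI replicate 1 lay far below and MI replicates 2 and 3 above all of them. The log2 fold change was -0.03 ± 0.12 with all animals and 0.08 without MI replicate 1. Slc25a20, the carnitine carrier of the inner membrane, and Cpt2, which returns the fatty acid to coenzyme A, had log2 fold changes of 0.06 and 0.03, or 0.13 and 0.11 without MI replicate 1.

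The acyl-CoA dehydrogenases carry out the opening step of each round, on chains of decreasing length. Acads, for short chains, had the lowest log2 fold change of the 34 members. It was at 82.0, 115, 133 and 96.4 CPM in MI and at 123, 114, 140.1 and 142 CPM in Sham. MI replicates 1 and 4 were below all Sham animals, while replicates 2 and 3 lay within their range. The log2 fold change was -0.28 ± 0.14 with an interval of -0.60 to 0.03 (edgeR adjusted p = 0.633), and -0.18 without MI replicate 1. Acadvl, for very long chains, was at 733, 1065, 960.0 and 962 CPM in MI and at 1034, 969, 984 and 945 CPM in Sham, with a log2 fold change of -0.08 that became 0.01 without MI replicate 1. Acadl and Acadm, for long and medium chains, had 0.06 and -0.06.

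The trifunctional protein carries out the remaining steps for long chains, and neither of its 2 subunit genes passed the test. Hadha was at 697, 900.2, 963 and 824 CPM in MI and at 945, 924, 906 and 854 CPM in Sham. Hadhb was at 3498, 3768, 3975 and 4467 CPM in MI and at 3838, 3559, 3356 and 3211 CPM in Sham. The groups overlapped for each gene alone, with log2 fold changes of -0.10 ± 0.10 for Hadha and 0.17 ± 0.10 for Hadhb (edgeR adjusted p of 0.781 and 0.650). Hadha moved to -0.02 without MI replicate 1 and -0.16 without MI replicate 3, and Hadhb to 0.10 without MI replicate 4. Their ratio separated the groups. Hadha reads per Hadhb read came to 0.199, 0.239, 0.242 and 0.185 in MI and 0.246, 0.260, 0.270 and 0.266 in Sham. Each MI animal was below each Sham animal, by a small margin between MI replicate 3 and Sham replicate 5. The mean log2 ratio was 0.28 lower in MI (-0.28, exact two-sided permutation p = 0.0286, the smallest that 70 arrangements allow). Adjusted over the 13 ratios compared, it was 0.371, which does not pass. With so few arrangements a single ratio could not have passed that adjustment, so this outcome says nothing on the ratio. The ratios were chosen with earlier results of these data known, so neither p is independent of these values. The difference lay between -0.34 and -0.20 with single animals left out. Read totals of different genes are not scaled for transcript length, so that only the change in the ratio is of meaning here.

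Later steps for shorter chains and the electron carriers showed small differences. Hadh, the medium and short-chain hydroxyacyl-CoA dehydrogenase, had a log2 fold change of 0.06 ± 0.09, and Acaa2, the thiolase, 0.01 ± 0.16 with animals from 895 to 1486 CPM, all within MI. Etfa and Etfb, the subunits of the flavoprotein that takes electrons from the acyl-CoA dehydrogenases, had 0.16 ± 0.09 and 0.09 ± 0.08. Etfa was at 2018, 1921, 1985 and 2306 CPM in MI and at 1908, 1673, 1810.4 and 1953 CPM in Sham, with only MI replicate 2 inside the Sham range. Etfdh, which hands these electrons to ubiquinone, had -0.01 ± 0.09, a sign that turned without MI replicate 1 or Sham replicate 5. The auxiliary enzymes for unsaturated fatty acids, Ech1, Eci1 and Decr1, all lay above 0, at 0.19, 0.10 and 0.14. With single animals left out, Ech1 ran from 0.11 without Sham replicate 6 to 0.28 without Sham replicate 5, and Eci1 from 0.062 to 0.16 without the same animals. Decr1 ran from 0.055 without MI replicate 3 to 0.22 without MI replicate 2, and was 0.064 without Sham replicate 7. Ech1 had Sham values from 983 to 1441 CPM, and its MI values, 1262 to 1460.5 CPM, overlapped them. The smallest edgeR adjusted p of these genes was 0.641, for Etfa, whose log2 fold change was 0.105 without MI replicate 4.

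The ratios between partner genes gave no call, and they were chosen with earlier results of these data known. With 13 ratios, an adjusted p under 0.05 would need most of them at the smallest possible p. Besides Hadha to Hadhb, Acadl to Acadvl was nearest to a separation, at 2.27, 1.93, 2.08 and 2.10 in MI and 1.97, 1.77, 1.92 and 1.90 in Sham. MI replicate 2 lay inside the Sham range, and the mean log2 ratio was higher in MI by 0.15 (exact permutation p = 0.0571, adjusted 0.371). Idh3b to Idh3a and Pdhb to Pdha1 were higher by 0.15 and 0.12 (exact permutation p = 0.114 each, adjusted 0.371), and Acads to Acadvl was at -0.21 (0.143, adjusted 0.371). The succinyl-CoA ligase ratios were the most level, with log2 differences of 0.01 for Suclg1 to Sucla2 and -0.02 for Suclg2 to Sucla2.

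**Figure D3:**
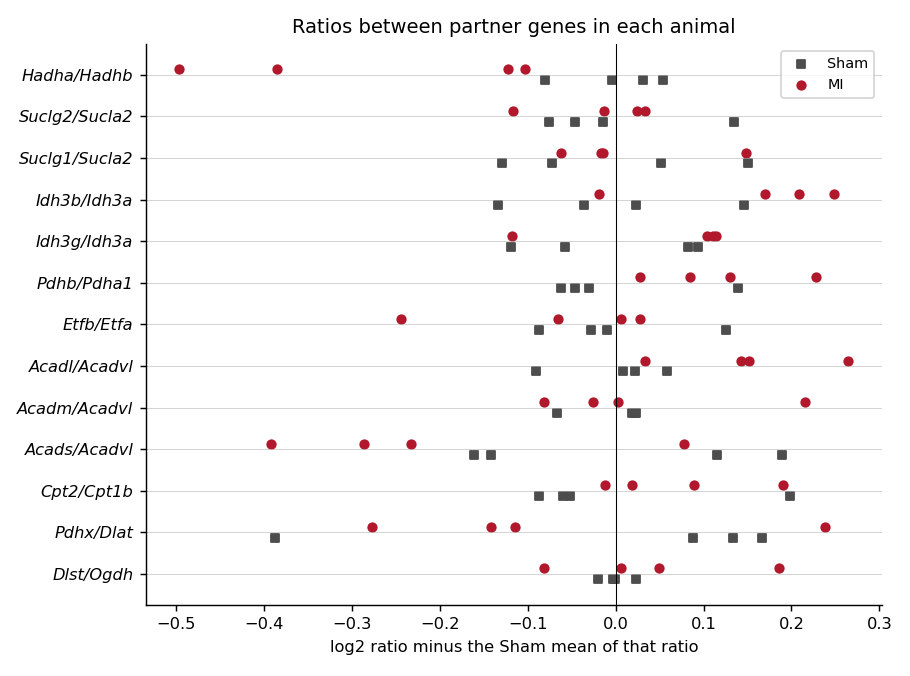
Log2 ratio of reads between partner genes in each animal, less the Sham mean of that ratio (x axis); circles are MI and squares Sham, 4 animals each. Only the ratio of Hadha to Hadhb, in the top row, separates the groups.

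The 2 pathways differed in how single animals lay. As a mean of log2 CPM, the pyruvate dehydrogenase and TCA genes were at 9.63, 9.75, 9.73 and 9.75 in MI and at 9.68, 9.66, 9.62 and 9.58 in Sham. MI replicates 2 to 4 were above all Sham animals, and MI replicate 1, the lowest of the MI animals, lay among the Sham animals. The beta oxidation genes were at 9.43, 9.62, 9.70 and 9.68 in MI and at 9.71, 9.51, 9.56 and 9.56 in Sham. Here the lowest animal was MI replicate 1 and the highest Sham replicate 5, so that each group held an extreme. The beta oxidation mean less the TCA mean was -0.20 in MI replicate 1 and between -0.15 and 0.03 in the other animals, with means of -0.11 ± 0.07 in MI and -0.05 ± 0.08 in Sham (SD, n = 4 each). The spread of a gene within its group was also wider in beta oxidation, with a median SD of 0.15 log2 CPM against 0.089 for the TCA members and 0.20 for all genes tested. It was 0.18 for the further genes of pyruvate and TCA metabolism and 0.22 for those of fatty acid use, both described below. MI replicate 1 is included in these values, and its part in them was not tested.

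MI replicate 1 was the lowest of the 8 animals for 9 of 17 beta oxidation genes (52.9%), for 4 of 17 pyruvate dehydrogenase and TCA genes (23.5%) and for 17.3% of all genes tested. It lay below the median of the other 7 animals by more than 0.2 on the log2 scale for 8 beta oxidation genes (47.1%), 2 pyruvate dehydrogenase and TCA genes (11.8%) and 28.9% of all genes tested. The beta oxidation genes included Acads at -0.59, Cpt1b at -0.46, Acadvl at -0.40 and Hadha at -0.38. Dlat (-0.42) and Ogdh (-0.34) were the TCA and pyruvate dehydrogenase members below that bound. Fh, Suclg1 and Idh3b were not low in this animal (0.12, 0.11 and 0.10 above the median of the others). Among the further genes described below, MI replicate 1 was the lowest animal for 37.5% of 32 genes of fatty acid use. The share was 24.2% of 33 genes of pyruvate and TCA metabolism, where Sham replicate 6 had a larger share (30.3%, against 10.6% of all genes tested). Without MI replicate 1, 14 of 17 beta oxidation genes were above 0 and their median log2 fold change was 0.091, with 0 members called. Sham replicate 5 and MI replicate 4 were each the highest animal for 5 beta oxidation genes (29.4%), where they were the highest for 7.86% and 16.5% of all genes tested. For the pyruvate dehydrogenase and TCA genes other animals stood out more than MI replicate 1. Sham replicates 7 and 8 were each the lowest for 6 of 17 (35.3%, against 13.8% and 14.2% of all genes tested). MI replicate 4 was the highest for 7 (41.2%) and MI replicate 2 for 5 (29.4%, against 10.4% of all genes tested).

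Pdk4, the kinase that switches off pyruvate dehydrogenase when fat is burned, and Ucp3, a mitochondrial carrier induced with fatty acid use, varied widely in the same animals. Pdk4 was at 197, 531, 701 and 1024 CPM in MI and at 973, 535, 681 and 428 CPM in Sham. Its lowest level was in MI replicate 1 and its highest in MI replicate 4 and Sham replicate 5, so that the log2 fold change of -0.10 had an SE of 0.48 and ran from -0.46 without MI replicate 4 to 0.20 without MI replicate 1. Ucp3 was at 87.1, 169, 285 and 212 CPM in MI and at 250.2, 167, 323 and 159 CPM in Sham, again lowest in MI replicate 1 (log2 fold change -0.26 ± 0.38, from -0.53 without MI replicate 3 to -0.02 without MI replicate 1). The part of these genes in the member values was not tested. Endothelial markers were lowest in MI replicate 1 of the 8 animals, at 267 CPM beside 285 to 328 CPM in Sham, and their part in the member values was not tested. Its slow-fibre markers summed to 26314 CPM, within the Sham range of 23552 to 32512, and its fast-fibre markers to 78988 CPM, within 66069 to 98440.

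**Figure D4:**
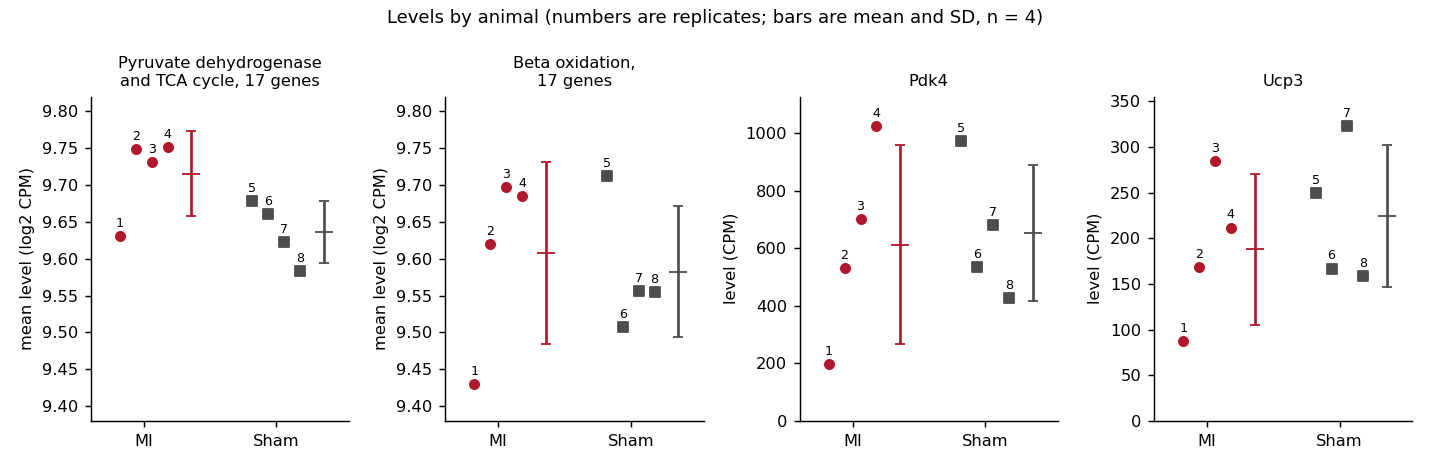
Mean log2 CPM of the 17 pyruvate dehydrogenase and TCA genes and of the 17 beta oxidation genes, and CPM of Pdk4 and Ucp3, in each animal (numbers are replicates; bars are mean and SD of 4 animals). MI replicate 1 is the lowest animal for beta oxidation (9.43), Pdk4 (197 CPM) and Ucp3 (87.1 CPM). For the TCA cycle it is the lowest of the MI animals (9.63), with Sham animals below it.

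Other genes of these pathways gave no call either. Of 33 further tested genes of pyruvate and TCA metabolism, 21 were above 0 (48.7% of all genes tested), with a median of 0.069. At an unadjusted edgeR p under 0.05, 2 were higher (3.67% of all genes) and 0 lower (4.47%). Those were Idh1, the cytosolic isocitrate dehydrogenase, at 0.32 ± 0.13 (0.20 without MI replicate 4), and Mpc1, a subunit of the mitochondrial pyruvate carrier, at 0.22 ± 0.09. The membrane subunits of succinate dehydrogenase, Sdhd and Sdhc, followed at 0.18 and 0.14, while its flavoprotein subunit Sdha was at -0.04 (0.03 without MI replicate 1). Sdhc had no overlap between the groups, with MI animals from 1719 to 1832 CPM and Sham animals from 1538 to 1687 CPM. The edgeR adjusted p of these 5 genes ran from 0.601 to 0.916.

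Of 32 further genes of fatty acid use, 18 were above 0 (48.7% of all genes tested), with a median of 0.042. At an unadjusted edgeR p under 0.05, 1 was higher (3.67% of all genes) and 2 lower (4.47%). Crot, the peroxisomal carnitine octanoyltransferase, was at -0.58 ± 0.21, or -0.34 without Sham replicate 5, where it was at 149 CPM. Acacb, which makes the malonyl-CoA that inhibits Cpt1b, was at 65.3, 80.8, 78.7 and 77.6 CPM in MI and at 81.5, 82.4, 96.2 and 89.9 CPM in Sham. The groups did not overlap, by a small margin, with -0.21 ± 0.09 on the log2 scale (edgeR adjusted p = 0.601). Acot13, a thioesterase, was at 0.25, the fatty acid carrier Fabp3 at 0.28, and Cpt1a, the liver form of the carnitine transferase, at -0.13 from only 9.08 to 15.7 CPM.

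Regulators of these genes were divided, with 6 of 16 above 0 (48.7% of all genes tested) and a median of -0.039. Rxra, the partner of the fatty acid receptors of the PPAR family, was at -0.49 ± 0.17 and Pparg, the adipose member of that family, at 0.45 ± 0.19 (0.29 without MI replicate 4), between 3.81 and 11.6 CPM in all animals. Gabpa, an ETS factor of mitochondrial genes, was at 52.0, 48.8, 48.8 and 48.0 CPM in MI and at 44.6, 46.3, 43.7 and 44.8 CPM in Sham, without overlap and with 0.14 ± 0.07 on the log2 scale (edgeR adjusted p = 0.639). Prkaa2, a catalytic subunit of the energy sensor AMPK, was at 0.17, and the fatty acid receptor Ppara at -0.14. Esrra, an oestrogen-related receptor, and its coactivator Ppargc1a were at -0.08 and -0.05, with signs that turned without Sham replicate 7 and Sham replicate 8 respectively. General mitochondrial genes, such as the outer membrane channels, had 13 of 15 above 0 (48.7% of all genes tested). Their median was 0.088, close to that of the TCA members. Vdac3, Slc25a3, Tomm20 and Vdac2 had 0.18, 0.15, 0.14 and 0.12, the value of Vdac3 0.12 and that of Tomm20 0.07 without MI replicate 1.

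The libraries held 7941402 to 24967251 counts, and a floor of 3 counts lay at 0.120 to 0.378 CPM, far below each member. The tissue carried its skeletal muscle markers, which summed to 98779 to 128554 CPM in MI and 104384 to 126610 in Sham. Adipocyte markers, 8 of 8 tested, summed to 223 to 474 CPM in MI and 187 to 261 in Sham, with the highest value in MI replicate 4, and the red blood cell markers, 6 of 6 tested, to 368 to 805 against 236 to 378 CPM. All 6 red blood cell markers were above 0, and DESeq2 called 5 of them (0.133% of all genes) where edgeR called 0. Slow-fibre markers overlapped (25736 to 28936 against 23552 to 32512 CPM), as did fast-fibre markers (59772 to 94532 against 66069 to 98440 CPM). In the fast-fibre sum MI replicates 2 and 4, at 59772 and 61173 CPM, were below all Sham animals. MI replicates 1 and 3 were within the Sham range. Endothelial (267 to 363 against 285 to 328), fibroblast (1841 to 3322 against 1703 to 2370) and immune markers (59.9 to 87.0 against 55.8 to 146) overlapped too. All 6 immune markers tested were nevertheless below 0, 1 of them at an unadjusted edgeR p under 0.05 (4.47% of all genes). Of 7 fibroblast markers, 3 were higher at that p (3.67% of all genes). Cardiac markers summed to 55.0 to 152 against 18.9 to 104 CPM, with Myl7 at 0 in each library. The part of these other cells and of the fibre types in the member values was not tested. The labels do not say how the animals were spread over surgery or collection days.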

How the data were processed

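Diaphragm RNA of 8 rats was isolated with TRI Reagent and made into libraries with SMARTer ultra-low-input and KAPA Hyper kits, per the labels' protocols. The submitters' processing notes list Cufflinks, STAR 2.5.0a, bcl2fastq and TopHat (also as TopHat2), with build rn5. How reads were counted is not given in the sources used here. The authors deposited raw whole counts per gene symbol, 1 column per animal, in 17055 rows. Symbols turned into dates by a spreadsheet (0.109% of counts) stayed in the totals.

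Pairs of libraries within a group differed beyond sampling noise (chi-square per degree of freedom 12.1 to 44.3), and each animal counted as 1 replicate. The labels do not tell more of how the animals relate. The p-values set the group difference against the spread between these animals, which edgeR moderates across genes. The animal numbers in the titles fall in 2 ranges, the lower of which holds Sham replicate 5 besides MI replicates 1 and 2. The range was entered as a term in 1 alternative, and the labels do not say what it marks.

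MI was compared with Sham by the robust quasi-likelihood F test of edgeR 4.0.16 under R 4.3.3 (genes kept by filterByExpr, TMM factors, two-sided, Benjamini-Hochberg over 10522 genes, threshold 0.05). The SE is the log2 fold change over the root of F, and 95% intervals use the moderated degrees of freedom. CPM are TMM-scaled; log2 CPM used a prior count of 2. Ratios were tested by exact permutation over 70 arrangements. The fit was tested on simulated data first. Alternatives were RLE factors, library totals, no filter, 1 CPM in 4 libraries, DESeq2 1.42.0, limma-voom 3.58.1, no robust estimation, the number range, raw counts plus 0.5 for ratios, a prior count of 0.5 for mean levels, and each library left out. RefSeq (GRCr8) gave promoters and overlaps between genes, in which 3 members overlap another gene of the table (Idh3b, Dlst, Acadvl). Gene levels are not scaled for length, so different genes are not ranked.

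All 34 members are named; of the further lists, the 4 genes with the smallest p and Pdk4, Cpt1a, Ucp3, Sdha, Ppara, Ppargc1a and Esrra. One more gene of this rule is not reported here. The members were listed by pathway and not by any measured value. The members, lists and ratios were nevertheless set with earlier results of these data known.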

Additional observations from a re-analysis of the deposited data

Results flagged for a closer look

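Among 100 sets of 4 animals (each member, the mean of each pathway, the difference of the pathway means and each partner ratio, in each group), 10 had 1 animal set apart from the other 3 by Dixon's criterion at the 95% level (the gap as a share of the group's range). Chance alone marks about 1 in 20 such sets, and members measured in the same animals are not independent.

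MI replicate 1 was low for Idh2 (4345 CPM, the other MI animals 4696 to 4758), for Acadl (1660 CPM against 1999 to 2057) and for the mean of the pyruvate dehydrogenase and TCA genes (9.631 log2 CPM against 9.732 to 9.752). Sham replicate 8 was low for Pdhx (158.6 CPM, the other Sham animals 231.7 to 236.0) and for the log2 ratio of Pdhx to Dlat (-0.3197 against 0.156 to 0.2333). Sham replicate 6 was high for Suclg2 (251.2 CPM against 224.2 to 226.1) and low for the log2 ratio of Acadm to Acadvl (2.062 against 2.147 to 2.152). Sham replicate 5 was high for the log2 ratios of Pdhb to Pdha1 (0.6058 against 0.4049 to 0.4371) and of Cpt2 to Cpt1b (0.4204 against 0.1352 to 0.1698). MI replicate 2 was low for the log2 ratio of Idh3g to Idh3a (-1.575 against -1.352 to -1.343). The cause of these values was not tested.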

How the results depend on the processing

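No member was called under any of the 16 alternatives, with a smallest adjusted p of 0.267 (Fh, DESeq2). Over all genes, 0 were called by edgeR, 14 by DESeq2 (9 higher, 5 lower), 1 without MI replicate 1 (Alas2) and 1 without MI replicate 3 (Zp2), with a range of 0 to 1 over the libraries left out. Of the 34 members, 24 kept their sign under all 16 alternatives and 10 turned. Pdha1, level at the start, turned to -0.0062 with library totals alone, -0.0021 with no filter and -0.0056 with a filter of 1 CPM. Leaving out single libraries gave log2 fold changes of -0.018 to 0.027 for Pdha1, -0.019 to 0.15 for Dlat, -0.024 to 0.055 for Idh3a, -0.13 to 0.017 for Ogdh, -0.081 to 0.0074 for Dlst, -0.10 to 0.083 for Cpt1b, -0.026 to 0.11 for Cpt2, -0.16 to 0.013 for Acadvl, -0.084 to 0.14 for Acaa2 and -0.050 to 0.054 for Etfdh. It gave log2 ratio differences of -0.031 to 0.064 for Suclg1 to Sucla2, -0.043 to 0.027 for Suclg2 to Sucla2, -0.034 to 0.064 for Acadm to Acadvl and -0.0087 to 0.080 for Dlst to Ogdh. The cause was not tested. No paired analysis was possible because the labels number the animals 1 to 8 with no number shared between the groups.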
